A study of Mus musculus with 8 samples.

Results

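A set of 10 genes by which osteoclasts and their precursors are known was followed through 8 RNA-seq libraries of bone marrow cells that had been cultured with M-CSF and had not been given RANKL. The genes were taken by symbol from the 24062 genes of the raw count table, and 10 of 10 had a row: Tnfrsf11a, which encodes the receptor RANK, Oscar, Itgb3, Calcr, Nfatc1, Dcstamp, Ocstamp, Atp6v0d2, Acp5 and Ctsk. Of these, 9 passed the filter on low counts and were tested among 13197 genes, and Calcr did not. The cells, labelled immature myeloid cells (IMCs), came from C57BL/6 mice of 2 months and had spent 3 days in 40 ng per mL of mouse M-CSF. There were 2 libraries in each of 4 groups. PARP1 WT mice were PARP1 flox/flox, and PARP1CKO mice carried the same floxed alleles with lysozyme-Cre. PARP2 WT mice were PARP2 flox/flox, and PARP2CKO mice carried those alleles with lysozyme-Cre. The lysozyme promoter drives Cre in myeloid cells, so other cells of a culture keep the floxed gene, and the Cre-free groups lack any control for Cre itself. The labels call the libraries biological duplicates and do not say how many mice entered each, so p-values measure the spread between these libraries.

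Osteoclasts form when macrophage precursors, kept alive by M-CSF, are given RANKL, the ligand of RANK. RANK signals through the adaptor TRAF6 to NF-kB and MAP kinases and, with receptors that use ITAM adaptors such as OSCAR, to calcium and calcineurin, and these routes raise NFATc1, the leading transcription factor of the lineage. NFATc1, with c-Fos, MITF and PU.1, drives genes for cell fusion (Dcstamp, Ocstamp, Atp6v0d2), attachment (Itgb3), acid and enzyme release onto bone (Acp5, Ctsk) and the calcitonin receptor of the mature cell (Calcr). The study examined osteoclast formation after loss of PARP1 or PARP2, and the libraries show where these genes stood in cells that had M-CSF alone.

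None of the 9 tested genes passed an adjusted p-value of 0.05 with either deletion, beside 0.106% (PARP1CKO) and 0.0530% (PARP2CKO) of all genes. With so few calls over all genes, 0 of 9 does not set this list apart. In every library the receptor gene Tnfrsf11a lay between 60.2 and 70.6 CPM (counts per 1000000 counts of the library, scaled by edgeR's TMM factors). The larger differences lay between the floxed lines. Atp6v0d2 and Ctsk were called higher in PARP2 WT than in PARP1 WT, as were 1.92% of all genes. Atp6v0d2, Ctsk and Acp5 were called higher in PARP2CKO than in PARP1CKO, as were 4.99% of all genes. The ligand gene Tnfsf11 had 0 or 1 count in each library.

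The libraries held between 37852450 and 61845125 counts in genes. Parp1, the targeted gene of the first line, had a log2 fold change of -1.75 in PARP1CKO (standard error 0.178, adjusted p = 0.0134), and Parp2 one of -0.91 in PARP2CKO (standard error 0.0453, adjusted p = 0.000139). Parp1 had 202 and 211 CPM in PARP1 WT against 63.2 and 59.1 in PARP1CKO, without overlap. In the other line Parp1 had 251 and 155 CPM in PARP2 WT, which lay far apart, and 263 and 264 in PARP2CKO. The Parp1 call was lost without PARP1 WT replicate 1 (adjusted p = 0.0753), PARP1 WT replicate 2 (0.0650) or PARP1CKO replicate 2 (0.0531), with log2 fold changes of -1.79, -1.73 and -1.71. Unless another test is named, p-values of differences come from the quasi-likelihood test of edgeR and were adjusted over the 13197 genes by the Benjamini-Hochberg method, and an exact permutation test of 2 against 2 libraries could not give a two-sided p under 0.333. Of the markers behind the label of the cells, Itgam, the gene of CD11b, had between 881 and 1035 CPM and Ly6c2 between 53.9 and 72.2 CPM, and Ly6g was not analysed here. A list of 7 macrophage markers summed to between 3135 and 3905 CPM and a list of 6 neutrophil markers to between 2427 and 3157 CPM, so the cultures held RNA of both kinds. In such bulk RNA, fewer cells of a type and less RNA per cell cannot be told apart.

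Promoter sequence is shown for the receptor gene and for the pair of resorption genes that were both higher in PARP2CKO than in PARP1CKO. Windows of up to 250 bases before an annotated start were read from RefSeq on GRCm38, and 5 of the 10 genes matched with 8 windows between them (Tnfrsf11a, Oscar, Calcr, Acp5, Ctsk). Bases that lay in an exon were left out. Windows were searched on both strands for GGAAA (the NFAT core), GAGGAA (PU.1), CATGTG (MITF) and TGANTCA (AP-1), motifs that were chosen after the expression results were seen. GAGGAA followed by A also holds GGAAA. Capitals mark the matches, which read in reverse complement where they lie on the other strand.
Tnfrsf11a, chr1:105780473-105780717, plus strand: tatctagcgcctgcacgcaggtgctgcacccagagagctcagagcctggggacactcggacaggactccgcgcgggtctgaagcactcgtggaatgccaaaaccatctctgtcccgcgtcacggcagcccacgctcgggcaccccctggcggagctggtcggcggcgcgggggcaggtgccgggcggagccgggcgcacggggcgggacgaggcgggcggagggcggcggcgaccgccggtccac
Ctsk, chr3:95498960-95499209, plus strand: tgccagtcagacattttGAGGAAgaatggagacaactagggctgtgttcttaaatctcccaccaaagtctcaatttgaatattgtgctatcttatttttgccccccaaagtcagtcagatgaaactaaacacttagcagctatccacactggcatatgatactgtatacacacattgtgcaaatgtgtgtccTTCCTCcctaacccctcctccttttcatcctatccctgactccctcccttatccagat
Acp5, chr9:22130609-22130848, minus strand, the window with most matches of 3: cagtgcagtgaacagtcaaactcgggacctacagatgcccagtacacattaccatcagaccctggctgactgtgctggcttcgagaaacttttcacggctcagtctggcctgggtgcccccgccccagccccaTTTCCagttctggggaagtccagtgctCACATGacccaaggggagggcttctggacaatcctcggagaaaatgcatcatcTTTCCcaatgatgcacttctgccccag
The Tnfrsf11a window held none of the 4 motifs. The Ctsk window held the PU.1 motif at 2 places, and 23.3% of 32851 mouse promoter windows of this length hold it. The Acp5 window held the NFAT core at 2 places and the MITF motif at 1, which 55.6% and 12.3% of windows hold. Those shares are for single windows, whereas this one was picked from 3 for its matches, so they are no fair measure of it. The other 2 Acp5 windows each held the NFAT core at 1 place and no MITF motif. The printed window lies inside the span of the gene, before an annotated start within it. The Oscar window held 3 matches of the NFAT core, 1 of the PU.1 motif and 1 of the MITF motif. The AP-1 motif, present in 6.75% of windows, was in none of the 8.

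**Figure D1:**
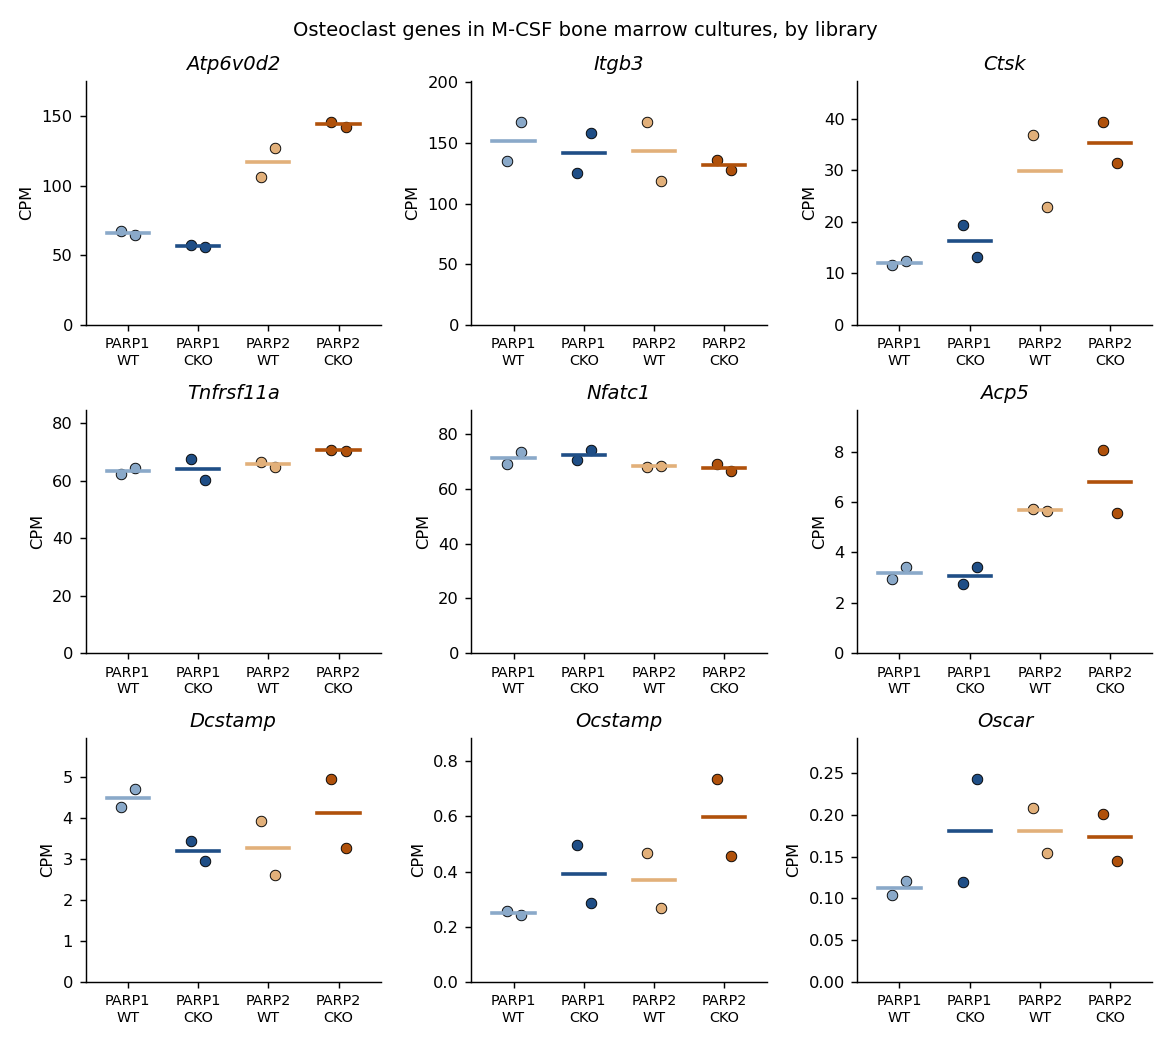
CPM (y axis, from 0) of the 9 tested osteoclast genes in the 8 libraries, by group (x axis); each point is 1 library and each bar the mean of 2. Atp6v0d2, Ctsk and Acp5 are higher in all 4 libraries of the PARP2 line than in the 4 of the PARP1 line, and Tnfrsf11a and Nfatc1 are nearly level. The share of all genes that separate the lines so was not counted.

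Tnfrsf11a (chromosome 1 of mm10, 105780718 to 105847981, plus strand) encodes RANK. Its RNA was present before any RANKL, at percentile 63.7 of the tested genes by level per exon length. It had 62.3 and 64.3 CPM in PARP1 WT against 67.5 and 60.2 in PARP1CKO, and 66.6 and 64.8 in PARP2 WT against 70.6 and 70.4 in PARP2CKO. The PARP1CKO libraries lay on either side of both PARP1 WT libraries, whereas both PARP2CKO libraries lay above both PARP2 WT libraries. The log2 fold change was 0.01 in PARP1CKO (95% confidence interval -0.11 to 0.14) and 0.10 in PARP2CKO (-0.02 to 0.22), with adjusted p = 0.943 and 0.954. A rise of RANK RNA above 0.14 or 0.22 on the log2 scale lay outside these intervals. Averaged over the lines the log2 fold change was 0.06 (-0.03 to 0.14, adjusted p = 0.672), and the PARP2CKO effect exceeded the PARP1CKO effect by 0.09 (-0.09 to 0.26, adjusted p = 0.812).

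The ligands and decoy were at the limit of what the depth could show. RANKL, encoded by Tnfsf11, had 1 count in PARP1 WT replicate 2, in PARP2 WT replicate 1 and in PARP2CKO replicate 1, and 0 in the other 5 libraries. Its decoy receptor osteoprotegerin, encoded by Tnfrsf11b, had between 0 and 4 counts, and Il34, another ligand of the M-CSF receptor, likewise between 0 and 4. A count of 3, taken as the floor, corresponds to between 0.0503 and 0.0775 CPM, which limits counting error only. Csf1r, the M-CSF receptor that precursors need, had between 1134 and 1273 CPM, and its log2 fold change was 0.0046 in PARP1CKO and 0.07 in PARP2CKO (adjusted p = 0.982 and 0.954).

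Nfatc1 (chromosome 18, 80606205 to 80713071, minus strand) was the steadiest of the 9 tested genes. It had 69.2 and 73.4 CPM in PARP1 WT against 70.6 and 74.2 in PARP1CKO, and 68.1 and 68.3 in PARP2 WT against 69.0 and 66.4 in PARP2CKO. WT and CKO overlapped in both lines. In PARP1CKO the log2 fold change was 0.02 (95% confidence interval -0.08 to 0.12) and -0.01 in PARP2CKO (-0.11 to 0.09). An antisense gene, AC123818.1, overlaps Nfatc1 without sharing exon bases.

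Among the other receptors, Oscar (chromosome 7, 3609813 to 3616157, minus strand), whose product passes collagen signals to the ITAM adaptor FcR gamma, was barely detected. It had 4 and 6 counts in PARP1 WT against 6 and 11 in PARP1CKO, and 12 and 8 in PARP2 WT against 12 and 7 in PARP2CKO. At this depth the interval of its log2 fold change ran from -0.58 to 1.87 in PARP1CKO and from -1.09 to 0.99 in PARP2CKO, so changes within these ranges could not be seen. Calcr (chromosome 6, 3685680 to 3764714, minus strand), the calcitonin receptor that marks mature osteoclasts, had 1 count in PARP1 WT replicate 2 and 0 in the other 7 libraries, under the floor of 3 counts in every library, and was not tested.

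Itgb3 (chromosome 11, 104608000 to 104670476, plus strand) encodes the beta3 chain that pairs with alphav in osteoclasts and with alphaIIb, the product of Itga2b, in megakaryocytes and platelets. It had 135 and 167 CPM in PARP1 WT against 125 and 158 in PARP1CKO, and 167 and 119 in PARP2 WT against 136 and 128 in PARP2CKO. Except in PARP2CKO, the libraries of a group lay further apart than the WT and CKO means of either line, and WT and CKO overlapped in both lines. Its log2 fold change was -0.10 in PARP1CKO (95% confidence interval -0.47 to 0.28) and -0.12 in PARP2CKO (-0.49 to 0.25). The replicate with more Itgb3 in each group was also the one with the larger sum of 8 megakaryocyte and platelet markers: 457 and 521 CPM in PARP1 WT against 460 and 524 in PARP1CKO, and 502 and 375 in PARP2 WT against 444 and 409 in PARP2CKO, in the order above. Per exon length, the ratio of Itgb3 to Itga2b stayed between 1.10 and 1.33 over the 8 libraries, and that of Itgb3 to Itgav ran from 1.66 to 2.59. What part of the Itgb3 RNA came from platelet-lineage cells was not tested.

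The fusion genes differed in level, and none passed in either deletion by the quasi-likelihood test. Dcstamp (chromosome 15, 39745930 to 39760938, plus strand) encodes a membrane protein that precursors need to fuse. It had 4.27 and 4.72 CPM in PARP1 WT against 3.43 and 2.94 in PARP1CKO, and 3.93 and 2.60 in PARP2 WT against 4.96 and 3.27 in PARP2CKO. Both PARP1CKO libraries lay below both PARP1 WT libraries, and the PARP2 groups overlapped. The log2 fold change was -0.50 in PARP1CKO (standard error 0.240, adjusted p = 0.466) and 0.34 in PARP2CKO (standard error 0.233, adjusted p = 0.954), and the difference between these effects was 0.84 (unadjusted p = 0.0342, adjusted p = 0.616 from the quasi-likelihood test). The PARP2CKO value ran from 3e-04 to 0.67 with a library left out.

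Ocstamp (chromosome 2, 165393760 to 165400405, minus strand), a partner of Dcstamp in fusion, had 10 and 12 counts in PARP1 WT against 25 and 13 in PARP1CKO, and 27 and 14 in PARP2 WT against 44 and 22 in PARP2CKO. Scaled for depth these were 0.258 and 0.242 CPM, 0.496 and 0.288 CPM, 0.467 and 0.269 CPM, and 0.738 and 0.456 CPM. Both PARP1CKO libraries lay above both PARP1 WT libraries, while PARP2CKO replicate 2 lay just below PARP2 WT replicate 1. The log2 fold changes were 0.66 and 0.70, and their mean over the lines was 0.68 (95% confidence interval -0.0023 to 1.36, unadjusted p = 0.0506, adjusted p = 0.546 from the quasi-likelihood test), the largest mean effect of the 9 genes and among the least precise. With a library left out the PARP1CKO value ran from 0.20 to 0.98 and the PARP2CKO value from 0.29 to 1.16.

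Atp6v0d2 (chromosome 4, 19876841 to 19922605, minus strand) encodes the d2 subunit of the vacuolar proton pump, which has a part in fusion and in acid release. It had 67.2 and 64.8 CPM in PARP1 WT against 57.0 and 55.9 in PARP1CKO, and 106 and 127 in PARP2 WT against 146 and 142 in PARP2CKO. Both PARP1CKO libraries lay below both PARP1 WT libraries, and both PARP2CKO libraries lay above both PARP2 WT libraries. The log2 fold change was -0.22 in PARP1CKO (95% confidence interval -0.40 to -0.05, unadjusted p = 0.0160, adjusted p = 0.335) and 0.31 in PARP2CKO (0.14 to 0.47, unadjusted p = 0.00220, adjusted p = 0.585, quasi-likelihood test). The difference between the effects was 0.53 (0.29 to 0.77, unadjusted p = 0.000691, adjusted p = 0.239), which did not pass over all genes. It passed with DESeq2 (adjusted p = 0.00140), with edgeR's likelihood-ratio test (0.00210), with no filter on low counts (0.00902) and without PARP2 WT replicate 2 (0.0170), where the last 2 fits called 0.348% and 0.0746% of all genes, and over all alternatives the adjusted p ran from 0.00140 to 0.595. The PARP2CKO effect itself passed with DESeq2 (adjusted p = 0.0390) and without PARP2 WT replicate 2 (0.0326, a fit that called 0.104% of all genes).

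Acp5 (chromosome 9, 22126727 to 22135711, minus strand), the gene of the phosphatase TRAP used to stain osteoclasts, had 2.95 and 3.43 CPM in PARP1 WT against 2.76 and 3.41 in PARP1CKO, and 5.72 and 5.63 in PARP2 WT against 8.06 and 5.55 in PARP2CKO. WT and CKO overlapped in both lines, and PARP2CKO replicate 1 was the highest library. In PARP1CKO it differed from WT by -0.06 on the log2 scale (standard error 0.203, adjusted p = 0.936), and in PARP2CKO by 0.27 (standard error 0.176, adjusted p = 0.954). It shares 137 exon bases with 6530413G14Rik, a gene on the opposite strand, and the counting is not stated to use the strand, so reads there could belong to either.

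Ctsk (chromosome 3, 95499256 to 95509362, plus strand) encodes cathepsin K, the protease that cuts bone collagen. It had 11.7 and 12.4 CPM in PARP1 WT against 19.4 and 13.1 in PARP1CKO, and 36.9 and 22.8 in PARP2 WT against 39.4 and 31.3 in PARP2CKO. Both PARP1CKO libraries lay above both PARP1 WT libraries, and the PARP2 groups overlapped because PARP2 WT replicate 1 lay far above replicate 2. The log2 fold change was 0.44 in PARP1CKO (standard error 0.252, adjusted p = 0.525) and 0.24 in PARP2CKO (standard error 0.223, adjusted p = 0.964). Their mean was 0.34 (95% confidence interval -0.04 to 0.72, adjusted p = 0.576). With a library left out the PARP1CKO value ran from 0.13 to 0.69.

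Counted over the list, edgeR's quasi-likelihood test called 0 of 9 genes in PARP1CKO against PARP1 WT, beside 0.106% of all genes tested, and 0 of 9 in PARP2CKO against PARP2 WT, beside 0.0530%. At an unadjusted p under 0.05 there was 1 in each, Atp6v0d2, beside 11.3% and 4.83% of all genes. DESeq2 called 0 in PARP1CKO (0.789% of all genes) and 1 in PARP2CKO (0.213%), and the likelihood-ratio test 0 in each (1.11% and 0.296%). The difference between the deletion effects gave 0 of 9 calls (0.0152% of all genes), with Atp6v0d2 and Dcstamp under an unadjusted 0.05 (7.69%), and both DESeq2 (0.403%) and the likelihood-ratio test (0.546%) called Atp6v0d2. The mean of the effects gave 0 calls by all 3 tests (0.106% of all genes by the quasi-likelihood test, 0.583% by DESeq2 and 0.659% by the likelihood-ratio test) and 0 at an unadjusted 0.05 (9.17%). WT and CKO did not overlap for 4 of 9 genes in the PARP1 line, 2 higher and 2 lower, where 41.2% of all genes did not overlap, 21.0% higher and 20.2% lower. In the PARP2 line 2 of 9 did not overlap, both higher, where the share was 37.2%, with 18.4% higher. The median log2 fold change of the 9 genes was 0.01 in PARP1CKO and 0.24 in PARP2CKO, beside a median over all genes of 0.0059 and -0.0014.

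**Figure D2:**
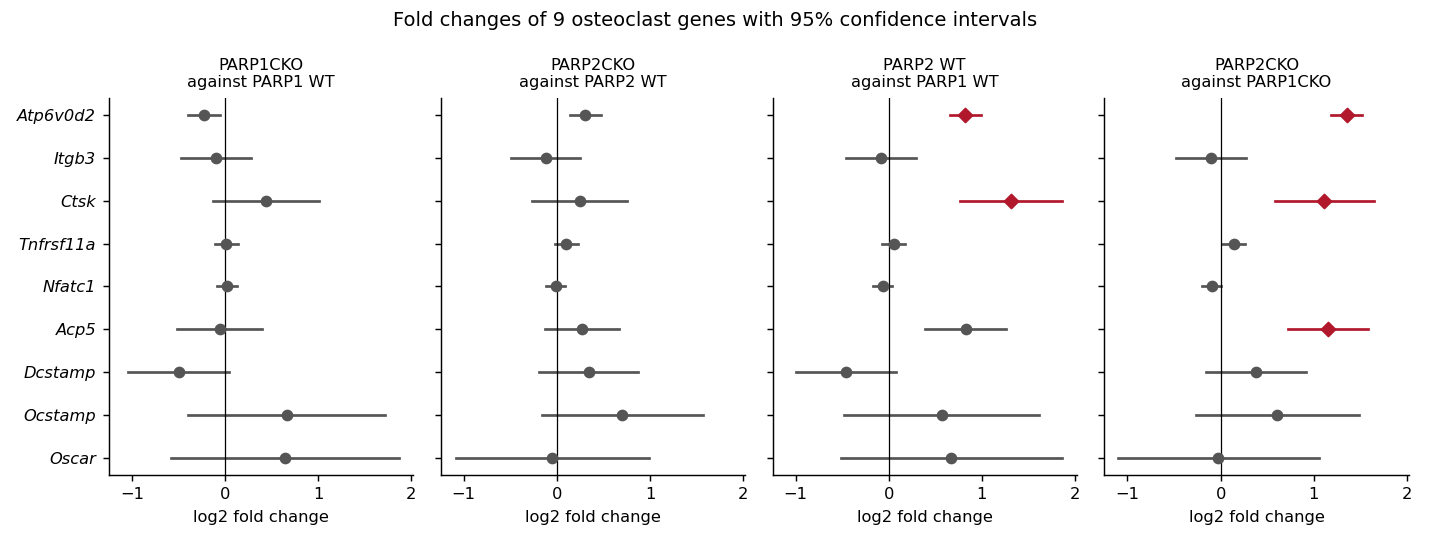
Log2 fold changes (x axis) of the 9 tested genes (y axis, ordered by level) in 4 comparisons, with 95% confidence intervals; red diamonds passed an adjusted p of 0.05. No gene passed in either CKO comparison, and Atp6v0d2 and Ctsk passed in both comparisons between the lines.

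The lines themselves were compared next, since the study holds floxed mice of each without Cre. Line, litter and floxed allele cannot be told apart in this comparison. Atp6v0d2, Acp5 and Ctsk lay higher in each of the 4 libraries of the PARP2 line than in any of the 4 of the PARP1 line. The share of all genes that separate the lines in this way was not counted, so this does not set these genes apart. In PARP2 WT against PARP1 WT the log2 fold change was 0.82 for Atp6v0d2 (1.77-fold, standard error 0.0741, adjusted p = 0.00110) and 1.31 for Ctsk (2.49-fold, standard error 0.243, adjusted p = 0.0267). Acp5, at 0.83 (1.77-fold, standard error 0.191), did not pass (adjusted p = 0.0557), although DESeq2, the likelihood-ratio test, no filter and a fit of these 4 libraries alone each called it, with 4.43%, 6.90%, 4.97% and 2.98% of all genes called. The Ctsk call was lost without PARP1 WT replicate 1, PARP1 WT replicate 2 or PARP2 WT replicate 1. Its log2 fold changes in those fits were 1.27, 1.36 and 0.93. The Atp6v0d2 call held with each library left out. The 2 calls of 9 stood beside 3.16% of all genes called, with 1.92% called in the higher direction.

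The Cre-carrying libraries gave another comparison of the lines from separate libraries, chosen after the data were seen. In PARP2CKO against PARP1CKO the log2 fold change was 1.35 for Atp6v0d2 (2.55-fold, standard error 0.0746, adjusted p = 0.000168), 1.15 for Acp5 (2.22-fold, standard error 0.188, adjusted p = 0.00848) and 1.12 for Ctsk (2.17-fold, standard error 0.234, adjusted p = 0.0208). These were 3 of 9 genes, beside 10.3% of all genes called, with 4.99% in the higher direction, and this comparison also holds the different deletions. Tnfrsf11a was at 0.05 in the WT comparison (adjusted p = 0.645) and 0.14 in the CKO comparison (1.10-fold, adjusted p = 0.135), with no overlap of libraries in either. Nfatc1 lay the other way, at -0.06 and -0.10 (adjusted p = 0.494 and 0.220), also without overlap. Groups did not overlap for 8 of 9 genes in the WT comparison and 5 of 9 in the CKO comparison, where 51.9% and 56.5% of all genes did not. The median of the 9 was 0.57 and 0.38, beside 0.0013 and -0.0031 over all genes.

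Dcstamp did not keep its direction between the lines. Its log2 fold change was -0.46 in PARP2 WT against PARP1 WT and 0.38 in PARP2CKO against PARP1CKO (adjusted p = 0.336 and 0.352). Oscar was at 0.67 and -0.02, and Ocstamp at 0.57 and 0.61, without passing in either (adjusted p between 0.355 and 0.989). Itgb3 was at -0.08 and -0.10 with overlapping libraries.

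Cell type markers moved with the lines as well. Summed over 5 B cell markers, the level was between 27.5 and 39.8 CPM in the PARP1 line and between 7.78 and 10.6 CPM in the PARP2 line, and all 5 were lower in PARP2 WT than in PARP1 WT by the quasi-likelihood test, as were 1.24% of all genes. Of 6 erythroid markers, the alpha globin copies Hba-a1 and Hba-a2 had the same counts in every library and were summed once. That sum was 2.43 and 2.06 CPM in PARP1 WT against 3.71 and 4.53 in PARP1CKO, and between 0.956 and 1.18 CPM in the PARP2 line, so it was higher in PARP1CKO than in PARP1 WT as well as between the lines. Hba-a1 did not pass in PARP1CKO (log2 fold change 0.88, unadjusted p = 7.22e-04, adjusted p = 0.156, quasi-likelihood test). The sum of 5 basophil and mast cell markers was between 12.5 and 18.1 CPM against 6.42 and 10.6 CPM, and that of 5 dendritic cell markers between 16.9 and 24.1 CPM against 11 and 16.5 CPM. The macrophage sum was between 3135 and 3435 CPM in the PARP1 line and between 3581 and 3905 CPM in the PARP2 line. Of its 7 genes 1 was called higher in PARP2 WT, where 1.92% of all genes were: Mertk, with 35.0 and 37.9 CPM in PARP1 WT and 55.3 and 68.4 CPM in PARP2 WT. The sum of 4 granulocyte progenitor markers was likewise lower in the PARP1 line, between 256 and 302 CPM, than in the PARP2 line, between 347 and 392 CPM, and that of 4 monocyte markers was between 194 and 265 CPM against 263 and 299.7 CPM, with overlap. The T and NK cell list lay between 1.81 and 3.06 CPM in all libraries. The stromal and osteoblast list, whose cells make RANKL, summed to between 12.5 and 17.3 CPM with no such split, of which Runx2 alone made 11.2 to 14.2 CPM, and the megakaryocyte and platelet list to between 457 and 524 CPM against 375 and 502 CPM. No listed marker of these cell types was at 0 in all libraries. In PARP2CKO against PARP2 WT, where Atp6v0d2 was higher in both libraries, all 6 neutrophil, all 4 monocyte and all 5 basophil and mast cell markers had log2 fold changes below 0, and none passed. Their sums did not overlap, where 37.2% of single genes did not. Neutrophil sums were 2936 to 3157 CPM in PARP2 WT against 2560 to 2886 CPM in PARP2CKO. Monocyte sums were 283 to 299.7 CPM against 263 to 279 CPM, and basophil and mast cell sums 9.06 to 10.6 CPM against 6.42 to 8.70 CPM. Over all genes 6686 of 13197 were below 0. In other lists 7 of 8 megakaryocyte and platelet and 3 of 4 granulocyte progenitor markers were also below 0, and 4 of 7 macrophage markers were above 0. In PARP1CKO, where Atp6v0d2 was lower in both libraries, all 4 monocyte markers were also below 0. Their median was -0.19 there and -0.16 in PARP2CKO. Of the other lists, 4 of 6 neutrophil and 4 of 5 basophil and mast cell markers were below 0 in PARP1CKO, and none passed. The part of these shifts in the levels of Atp6v0d2, Ctsk and Acp5 was not tested.

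**Figure D3:**
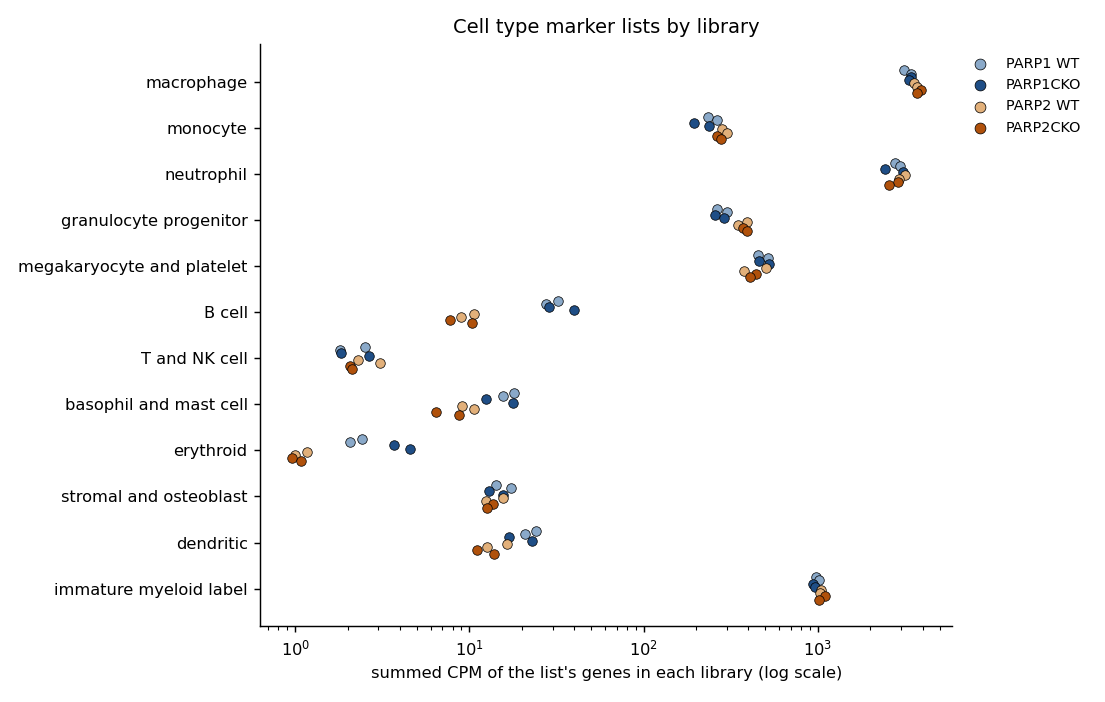
Summed CPM of each marker list (x axis, log scale) in each of the 8 libraries, coloured by group. The B cell list lies between 27.5 and 39.8 CPM in the PARP1 line and between 7.78 and 10.6 CPM in the PARP2 line. The macrophage list lies between 3135 and 3435 CPM in the PARP1 line and between 3581 and 3905 CPM in the PARP2 line.

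Levels were compared between genes per kilobase of exon (RPKM, mean over 8 libraries, exon lengths of GENCODE M21). Atp6v0d2 had 37.7 RPKM and ranged from 22.0 to 57.5, which overlapped Itgb3 at 24.6 (20.6 to 29.0) and Ctsk at 15.5 (7.71 to 26.1). The order of the first pair was not fixed in the PARP1 line. Itgb3 averaged 26.2 RPKM in PARP1 WT and 24.5 in PARP1CKO, where Atp6v0d2 averaged 25.99 and 22.2. In both PARP1 groups Atp6v0d2 was ahead in replicate 1 and Itgb3 in replicate 2. Atp6v0d2 led in PARP2 WT (46.0 against 24.7) and PARP2CKO (56.8 against 22.8). Tnfrsf11a at 13.1 RPKM (12 to 14.0) lay within the range of Ctsk, and above Nfatc1 at 9.40 RPKM (8.94 to 9.98) in all libraries. Next came Acp5 at 2.74 (1.61 to 4.72) and Dcstamp at 1.83 (1.26 to 2.42), whose ranges overlapped, and then Ocstamp at 0.110 (0.0661 to 0.202) and Oscar at 0.0876 (0.0560 to 0.132), whose ranges overlapped too. Among tested genes Atp6v0d2 stood at percentile 85.8 and Tnfrsf11a at 63.7, whereas Ocstamp and Oscar stood at 4.95 and 3.76.

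Several relatives were more abundant per exon length. The ubiquitous pump subunit Atp6v0d1 had 171 RPKM, and the ratio of Atp6v0d2 to it was 0.161 and 0.156 in PARP1 WT against 0.135 and 0.138 in PARP1CKO, and 0.236 and 0.280 in PARP2 WT against 0.307 and 0.321 in PARP2CKO. The order of the groups in this ratio was that of Atp6v0d2 itself, and Atp6v0d1 had a log2 fold change of -0.01 in PARP1CKO and 0.02 in PARP2CKO (adjusted p = 0.949 and 0.978). Cathepsin S, a macrophage protease encoded by Ctss, had between 58.2 and 170 times the level of Ctsk per length, and Ctsd and Ctsb, which serve all lysosomes, reached 7236 and 3146 RPKM. Nfatc1 had between 0.432 and 0.484 times the level of Nfatc3, the highest of its family at 20.6 RPKM. Calcrl, a relative of the calcitonin receptor gene, had 7.28 RPKM where Calcr had 1 count in all.

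**Figure D4:**
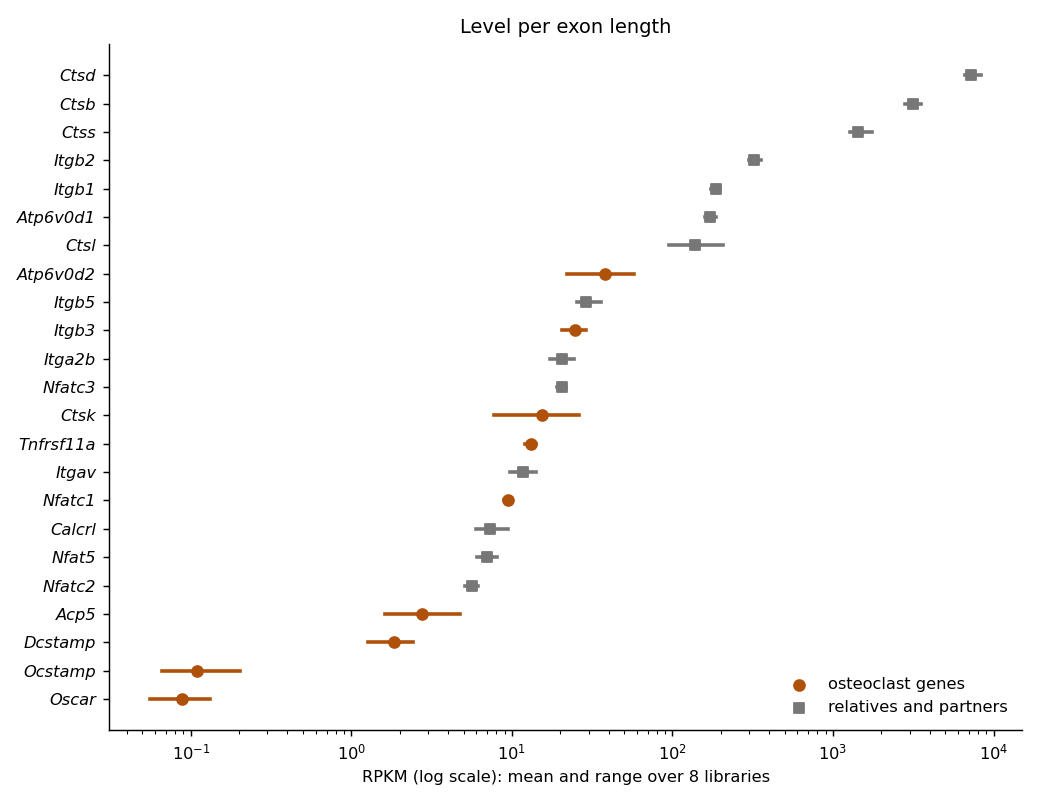
Level per exon length (x axis, RPKM, log scale) of 9 osteoclast genes (circles) and their relatives and partners (squares), as the mean with the range over 8 libraries; Calcr and Nfatc4, with 0 in some libraries, are not drawn. Averaged over both lines Atp6v0d2 is at 37.7 RPKM and Itgb3 at 24.6 RPKM, an order that differs between libraries of the PARP1 line. Oscar is at 0.0876 RPKM.

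Across the 8 libraries, which share the line difference and 4 groups, the log2 CPM of Atp6v0d2 followed Acp5 (Pearson r = 0.94) and Ctsk (0.84), and Acp5 followed Ctsk (0.86). Tnfrsf11a followed Ctsk (0.83) and Ocstamp (0.82), and Ocstamp followed Ctsk (0.82). Nfatc1 ran opposite to Atp6v0d2 (-0.79) and Ctsk (-0.71). Among the genes most like Tnfrsf11a out of 11446 genes of at least 1 CPM were C3ar1 (0.99), Abl2 and Slc37a2 (both 0.98) and Lipn (0.97), with 582 genes above 0.8. Tnfrsf11a spanned only 0.23 on the log2 scale over the libraries. Those most like Ctsk, which spanned 1.75, were Fam132a (0.985), Muc6 and Mmp19 (both 0.98) and Ptgfrn and Wsb2 (both 0.97), with 1025 genes above 0.8. These are descriptions over libraries that differ in line.

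The remaining genes of the pathway were taken from 7 lists with 67 genes, of which 63 were tested. PARP1CKO gave 1 call of 63, lower in CKO as were 0.0758% of all genes, and PARP2CKO, the difference and the mean gave 0 each. The call was Fos, which encodes the AP-1 factor that osteoclast formation requires and which stood in the list of transcription activators (1 lower of 10 tested). Fos had 173 and 147 CPM in PARP1 WT and 69.7 and 47.1 CPM in PARP1CKO, without overlap, which is -1.45 on the log2 scale (standard error 0.188, adjusted p = 0.0355). In PARP2 WT it had 135 and 186 CPM and in PARP2CKO 129 and 126 CPM, a log2 fold change of -0.33 (adjusted p = 0.954), and the difference between the effects did not pass (1.12, adjusted p = 0.372). The call in PARP1CKO was lost without PARP1 WT replicate 1, PARP1 WT replicate 2, PARP1CKO replicate 2, PARP2CKO replicate 1 or PARP2CKO replicate 2 (adjusted p between 0.0614 and 0.166), with the replicate number as a block (0.0718) and in a fit of the 4 libraries alone (0.0540). The log2 fold change in these fits stayed between -1.57 and -1.20.

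Of the other lists, RANK signalling had 0 calls of 15 in either deletion, with Traf6, the adaptor of RANK, at -0.02 in PARP1CKO and -0.05 in PARP2CKO (adjusted p = 0.867 and 0.968). Co-stimulation and calcium had 0 of 11, and Tyrobp, the ITAM adaptor DAP12, was at 0.04 and 0.10 (adjusted p = 0.780 and 0.954). The activators Mitf and Spi1, the gene of PU.1, were at -0.07 and 0.11 in PARP1CKO and 0.02 and -0.01 in PARP2CKO. The repressor Irf8, which holds precursors back from the osteoclast fate, was at 0.10 in PARP1CKO and 0.0012 in PARP2CKO without passing. Within resorption machinery, 0 of 12 in either, Tcirg1, the osteoclast pump subunit a3, was at 0.15 and 0.09 (adjusted p = 0.331 and 0.954), and Mmp9, a matrix protease, at 0.11 and -0.43 (adjusted p = 0.669 and 0.557). Cell fusion had 0 of 6, and Cd9, a tetraspanin, was at -0.17 in PARP1CKO (unadjusted p = 0.00551, adjusted p = 0.282, quasi-likelihood test). At an unadjusted p under 0.05 the 63 genes gave 8 in PARP1CKO and 5 in PARP2CKO, 8 for the difference and 6 for the mean, beside 11.3%, 4.83%, 7.69% and 9.17% of all genes. DESeq2 called Fos in PARP1CKO and for the mean, and Mmp9 in PARP2CKO and for the difference, beside 0.789%, 0.583%, 0.213% and 0.403% of all genes. The likelihood-ratio test called the same and also Fos for the difference, beside 1.11% of all genes in PARP1CKO, 0.659% for the mean, 0.296% in PARP2CKO and 0.546% for the difference.

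The genes with the smallest p in a list, where not yet named, stayed above the threshold in the deletions. In PARP1CKO they were Lgr4 at 0.30, Map3k14 at 0.11, Syk at -0.10 and Id2 at -0.14 (adjusted p between 0.382 and 0.643). In PARP2CKO they were Csf1 at -0.50, Ikbkg at 0.12, Id3 at 0.25 and Adam8 at 0.24 (adjusted p between 0.801 and 0.954). For the mean of the effects Gab2 was at 0.04, with an adjusted p of 0.671.

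Between the lines the pathway differed more. In PARP2 WT against PARP1 WT 7 of 63 genes were called, 5 higher and 2 lower, beside 1.92% of all genes called higher and 1.24% called lower. Resorption machinery held 5 of the 7. Mmp14, a membrane protease, had 3.33 and 4.03 CPM in PARP1 WT and 7.70 and 6.25 CPM in PARP2 WT (log2 fold change 0.91, adjusted p = 0.0338). Tcirg1 (0.28, adjusted p = 0.0252), the anion exchanger gene Slc4a2 (0.25, 0.0273) and the pump subunit gene Atp6v1b2 (0.27, 0.0478) were also higher. Mmp9 was lower, with 46.7 and 48.6 CPM in PARP1 WT against 29.2 and 32.5 CPM in PARP2 WT (-0.63, adjusted p = 0.0112). In the list of repressors Id2 was lower (-0.28, adjusted p = 0.0290). With the replicate number as a block 5 were called, without Mmp14 (adjusted p = 0.0532) and Id2 (0.0514), and Atp6v1b2 did not pass with DESeq2 size factors (0.0508) or library size alone (0.0534). Without PARP1 WT replicate 1 or PARP2 WT replicate 1 no pathway gene was called, without PARP2 WT replicate 2 there were 2, and without PARP1 WT replicate 2 there were 4. In the first 3 of these fits the calls over all genes fell as well, from 417 to 85, 167 and 146.

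PARP2CKO against PARP1CKO gave 19 calls of 63, 13 higher and 6 lower, beside 4.99% of all genes called higher and 5.34% called lower. Of the 7 genes above, 6 were called here too in the same direction (85.7% of the 7 and 31.6% of the 19, beside 72.7% and 22.2% over all genes), and Id2 was not. Mmp14 was at 1.30, Atp6v1b2 at 0.43, Slc4a2 at 0.27 and Tcirg1 at 0.22, while Mmp9 was at -1.17 (adjusted p between 0.000433 and 0.0284). The other higher genes were Slc9b2 (1.13), Fos (1.12), Prdm1 (0.69), Adam8 (0.44), Cd9 (0.31), Id3 (0.26), Mitf (0.21) and Syk (0.20). Because this comparison also holds the different deletions, not all of these were higher between the WT groups. Fos averaged 160 CPM in PARP1 WT and 161 in PARP2 WT, against 58.4 in PARP1CKO and 128 in PARP2CKO. Id3 averaged 41.1 CPM in PARP1 WT and 39.6 in PARP2 WT, against 39.2 in PARP1CKO and 47.0 in PARP2CKO. The other lower genes were Csf1 (-1.42), Cd81 (-0.40), Rbpj (-0.27), Traf6 (-0.19) and Fcer1g (-0.19). Csf1, the gene of M-CSF itself, had 19.4 and 30.2 CPM in PARP1CKO and 8.47 and 10.0 CPM in PARP2CKO, in cultures that were all given the protein. In the WT comparison Csf1 was at -1.02 (adjusted p = 0.0922), Prdm1, a repressor of osteoclast inhibitors, at 0.51 (0.145), Plcg2 at -0.13 (0.138) and Traf6 at -0.17 (0.0977).

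**Figure D5:**
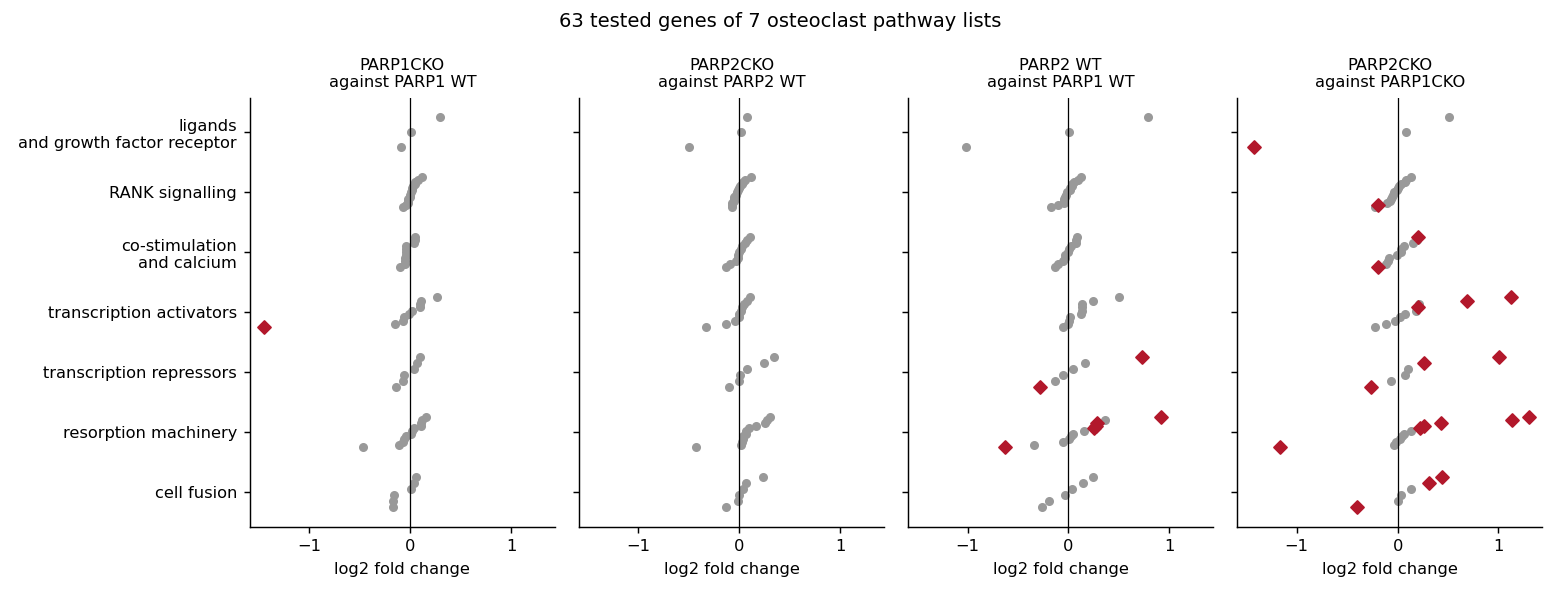
Log2 fold changes (x axis) of the 63 tested pathway genes in 7 lists (y axis) for 4 comparisons; each point is 1 gene and red diamonds passed an adjusted p of 0.05. The deletions gave 1 and 0 calls, and the comparisons between lines 7 and 19, beside 0.106%, 0.0530%, 3.16% and 10.3% of all genes. The last comparison also holds the different deletions.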

How the data were processed

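The values analysed are raw counts of reads per gene, as the authors deposited them. Per the labels and the study's methods, the authors sequenced stranded total RNA (4 µg per library), trimmed reads with fastq-mcf, mapped them to mm10 with TopHat2 2.0.12, marked duplicates with Picard 1.127 and counted with featureCounts. The annotation, the strand setting and the handling of duplicates are not given in the sources used here, so genes that share exon bases may share counts.

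The 13197 genes that passed filterByExpr were fitted in edgeR 4.0.16 (R 4.3.3) with TMM scaling, 8 libraries and a mean per group, and tested by quasi-likelihood with Benjamini-Hochberg adjustment at 0.05. Library totals were 37852450 to 61845125. Replicates differed by more than sampling noise (chi-square per gene 8.56 to 12.9). DESeq2 1.42.0, other scalings and filters, a replicate block and fits with a library left out were alternatives. Figures used matplotlib 3.10.9. Positions and exon lengths came from GENCODE M21, which gave a length for 95.1% of tested genes. A prior count of 2 was used for log2 CPM in correlations. No column of other samples was present.

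The genes, the pathway and marker lists and the tests were chosen with earlier results of these data known. Genes named are Parp1, Parp2, the 10 genes, their relatives, called pathway genes, the smallest p of each list, a set of key regulators and, by pattern, the 5 genes each most like Tnfrsf11a and Ctsk, and 2 of the genes so chosen are not reported here. Mertk and Itgam were named after their values were seen.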

Additional observations from a re-analysis of the deposited data

Results flagged for a closer look

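Atp6v0d2 separated WT from CKO in opposite directions in the lines. It had 67.2 and 64.8 CPM in PARP1 WT against 57.0 and 55.9 CPM in PARP1CKO, and 106 and 127 CPM in PARP2 WT against 146 and 142 CPM in PARP2CKO. The log2 fold change in PARP2CKO exceeded that in PARP1CKO by 0.53 (standard error 0.104), and the test of that difference by edgeR's quasi-likelihood did not pass over all genes (adjusted p = 0.239). Of all genes tested, 873 (6.62%) separated in opposite directions in this way.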

How the results depend on the processing

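Over 691 refits of member fold changes, 634 kept their direction and side of the threshold. These counts include PARP2CKO against PARP1CKO, set beside the comparison of the WT lines, which is another comparison and not a change of processing. In PARP2CKO against PARP2 WT, 1 osteoclast gene (Atp6v0d2) was called with DESeq2, and 0 to 1 with a library left out. For the difference between the effects 1 (Atp6v0d2) was called with DESeq2, with the likelihood-ratio test and with no filter on low counts, and 0 to 1 with a library left out. PARP2 WT against PARP1 WT gave 1 to 3 calls with a library left out, and PARP1CKO and the mean of the effects gave 0 under every alternative run. With no library left out, 3 values changed direction. Nfatc1 in the mean of the effects was -0.01 with library size alone. Between the lines Oscar was -0.0228 and Dcstamp 0.38 in PARP2CKO against PARP1CKO. That comparison uses other libraries than the WT comparison and also holds the different deletions, so it does not show dependence on processing.

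With a library left out, log2 fold changes changed direction for 19 values. In PARP1CKO these were Tnfrsf11a (-0.0724 to 0.0932), Itgb3 (-0.27 to 0.0624), Nfatc1 (-0.0229 to 0.0613) and Acp5 (-0.22 to 0.0889). In PARP2CKO they were Oscar (-0.32 to 0.19), Itgb3 (-0.34 to 0.15), Nfatc1 (-0.0384 to 0.0162), Acp5 (-0.0331 to 0.51) and Ctsk (-0.0566 to 0.63). For the difference they were Itgb3 (-0.24 to 0.25), Nfatc1 (-0.0712 to 0.0131), Ocstamp (-0.37 to 0.50) and Ctsk (-0.50 to 0.19). For the mean they were Itgb3 (-0.22 to 0.0262), Nfatc1 (-0.0164 to 0.0257), Dcstamp (-0.25 to 0.0895), Atp6v0d2 (-0.0210 to 0.11) and Acp5 (-0.0451 to 0.22), and between the WT lines Itgb3 (-0.35 to 0.14).

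Pathway calls were 1 in PARP1CKO (0 to 1 over the alternatives), 0 in PARP2CKO (0 to 1), 0 for the difference (0 to 2), 0 for the mean (0 to 1) and 7 between the WT lines (0 to 12). All-gene counts moved more: 14 in PARP1CKO (1 to 146 over the alternatives), 7 in PARP2CKO (4 to 39), 2 for the difference (1 to 72), 14 for the mean (3 to 87) and 417 between the WT lines (85 to 910). The ranges between the WT lines leave out PARP2CKO against PARP1CKO, which gave 19 pathway calls and 1363 calls over all genes. Replicate numbers did not pair the samples (correlation of deviations -0.13 in the PARP1 line and 0.15 in the PARP2 line), and with the number as a block the osteoclast calls were 0, 0, 0, 0 and 2 and the all-gene counts 14, 6, 3, 6 and 315. With 2 libraries per group a lone sample left after omission was assumed to vary like the other groups. Depth limited Oscar, Ocstamp and Calcr.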
